A study of Mus musculus with 12 samples.

Results

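The IL-2 and IL-15 receptor genes of mouse natural killer (NK) cells, lymphocytes that kill target cells and secrete cytokines, were examined together with the kinases and transcription factors that act below them. The set was chosen by gene name and holds 8 genes of the 55487 features in the deposited table: Il2ra, Il2rb, Il2rg and Il15ra for the receptor chains, Jak1 and Jak3 for the kinases, and Stat5a and Stat5b for the transcription factors. All 8 passed the filter on low values, as did 12364 features in all. The mice were of strain B6.129S4-Ifngtm3.1Lky/J and, with mut/mut as their genotype, carried an altered Ifng allele that reports interferon gamma expression through yellow fluorescent protein (YFP). All 12 samples are titled as NK cells with HD IL-15, an abbreviation the labels do not spell out. In 4 samples the cells were left unstimulated, and in the other 8 they were treated for 6 h with anti-NK1.1, an antibody to an activating NK cell receptor, and sorted as reporter-negative (YFP-) or reporter-positive (YFP+), 4 samples each. The titles of the unstimulated samples name no YFP gate, and no time is recorded for them. In comparisons with them the antibody, the sorting by reporter and any difference in time cannot be told apart. Each group has 1 sample for each of the labels f2, m2, m3 and m4. Nothing in the labels says whether samples with one label came from the same mouse, so the p-values measure the spread between these samples. No group lacked IL-15, so the data hold no level of these genes in unprimed cells.

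IL-2 and IL-15 are cytokines that share most of their receptor. The beta chain (Il2rb) and the common gamma chain (Il2rg) carry the signal for both, while a private alpha chain (Il2ra or Il15ra) raises affinity for 1 ligand each. JAK1 sits on the beta chain and JAK3 on the gamma chain, and the activated kinases lead to phosphorylation of STAT5A and STAT5B, which then enter the nucleus and bind DNA. In NK cells IL-15 acting through this receptor is known for sustaining survival, and the alpha chain of the IL-2 receptor, also called CD25, is known as an activation marker.

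The sequences just upstream of 3 receptor genes whose levels rose are shown because the gene starts are where a regulatory match can be looked for. They are the 250 bases before a RefSeq start (GRCm38.p6), written 5′ to 3′ on the strand of the gene, with capitals at matches to any of 5 motifs on either strand. Il2ra is read from the plus strand at chr2:11642542-11642791, Il15ra from the plus strand at chr2:11705043-11705292, and Il2rg from the minus strand at chrX:101268256-101268505.
Il2ra: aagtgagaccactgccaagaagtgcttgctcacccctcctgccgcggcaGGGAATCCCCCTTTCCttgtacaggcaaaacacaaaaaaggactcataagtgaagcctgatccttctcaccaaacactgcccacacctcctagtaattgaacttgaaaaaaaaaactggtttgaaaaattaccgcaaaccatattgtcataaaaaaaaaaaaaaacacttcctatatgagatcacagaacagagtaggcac
Il15ra: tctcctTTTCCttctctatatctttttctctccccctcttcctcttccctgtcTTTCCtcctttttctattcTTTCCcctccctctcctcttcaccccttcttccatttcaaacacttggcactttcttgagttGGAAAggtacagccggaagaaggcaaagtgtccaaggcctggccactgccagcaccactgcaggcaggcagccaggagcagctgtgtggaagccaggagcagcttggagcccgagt
Il2rg: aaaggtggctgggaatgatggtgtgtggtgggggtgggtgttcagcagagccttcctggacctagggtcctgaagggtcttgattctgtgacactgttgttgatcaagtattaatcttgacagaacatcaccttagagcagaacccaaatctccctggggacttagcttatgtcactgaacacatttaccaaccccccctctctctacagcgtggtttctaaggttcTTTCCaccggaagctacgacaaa
The motifs searched were the kappaB element, the STAT element TTCNNNGAA, the AP-1 element TGANTCA, the cyclic AMP response element TGACGTCA and the NFAT core GGAAA. In Il2ra the capitals mark overlapping kappaB matches between positions -201 and -191 from the start, joined to an NFAT core on the opposite strand at -190 to -186. In Il15ra they mark 4 NFAT cores, and in Il2rg 1 NFAT core at -23 to -19. Windows not printed here held matches too. Another Il15ra window had an AP-1 element at -30 to -24, and a Stat5a window a kappaB match at -234 to -225. The Jak1 window had a cyclic AMP response element at -101 to -94, and windows of Jak3, Stat5a and Stat5b held NFAT cores. Among 32851 windows of the same length, 7.25% held a kappaB match, 55.6% an NFAT core, 7.02% the STAT element, 6.75% the AP-1 element and 1.55% the cyclic AMP response element. The STAT element was found in none of the 10 windows of the 7 genes with an entry (Il2rb had none), which says only that these letters are not in those windows.

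The libraries held 32.1 to 54.2 M reads (M, mega), and the level that 3 reads give was 0.0553 to 0.0933 CPM (reads of a gene relative to all reads of its library). Reads on rRNA-like features took 27.4% to 35.3% of unstimulated libraries, 15.9% to 30.3% of YFP- and 13.7% to 29.8% of YFP+. In both sorted groups m3 had the highest rRNA-like share, and it was also the lowest library for 7 of the 8 genes in YFP- and for 6 of 8 in YFP+. Among unstimulated samples m4 had the highest share but was the lowest library for only 3 of 8 genes, the same as m3. These counts have no counterpart over all features here, so they are not a result about the 8 genes. The 9 NK cell marker genes, Ncr1 and Klrk1 among them, summed to 13561 to 16233 CPM before stimulation, 9572 to 12106 among YFP- and 10141 to 14090 among YFP+ samples. The members of that list did not move alike: Klrb1c, which encodes NK1.1, went from 290 to 327 CPM before stimulation to 57.6 to 86.6 for YFP- and 3.70 to 8.97 for YFP+, and Eomes from 102 to 115 CPM to 57.5 to 84.3 and 38.3 to 43.0, whereas Klrk1 stood at 183 to 195, 236 to 322 and 210 to 274 CPM. Of other cell types, the 7 T cell markers summed to 45.9 to 106 CPM without stimulation, 40.4 to 62.9 for YFP- and 23.5 to 47.0 for YFP+, nearly all from Cd3d and Cd3g. Cd4, Cd8a and Cd8b1 were each at most 0.193 CPM in any library. The B cell, monocyte, neutrophil and erythroid lists each summed to at most 4.19 CPM in any library. Dendritic cell markers summed to 2.16 to 3.57 CPM without stimulation, 18.8 to 22 for YFP- and 7.05 to 13.5 for YFP+, mostly Zbtb46 and Xcr1, and those of type 2 innate lymphoid cells to 35.1 to 42.0, 40.8 to 73.8 and 19.2 to 52.2, mostly Gata3. The part of these lists in the results was not tested.

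Against unstimulated cells, stimulated cells of either sort had more mRNA for both alpha chains, for the common gamma chain and for both STAT5 genes, and less for both kinases. In YFP- samples 7 of the 8 genes passed the threshold (limma, Benjamini-Hochberg adjusted p under 0.05), 5 higher and 2 lower. Over all 12364 features 51.1% passed, 30.2% higher and 20.9% lower. In YFP+ samples the same 7 genes passed, again 5 higher and 2 lower, beside 60.8% of all features, 27.5% higher and 33.3% lower. Both comparisons share the unstimulated samples. Between the sorted groups 2 of the 8 passed, both lower in YFP+, beside 21.8% of all features, 3.28% higher and 18.5% lower. That count of 2 is near the share over all features and is not a result about these genes as a set. The median log2 change of the 8 genes was 0.84, 0.78 and -0.32 in these comparisons, against 0.14, -0.03 and -0.19 over all features tested.

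**Figure D1:**
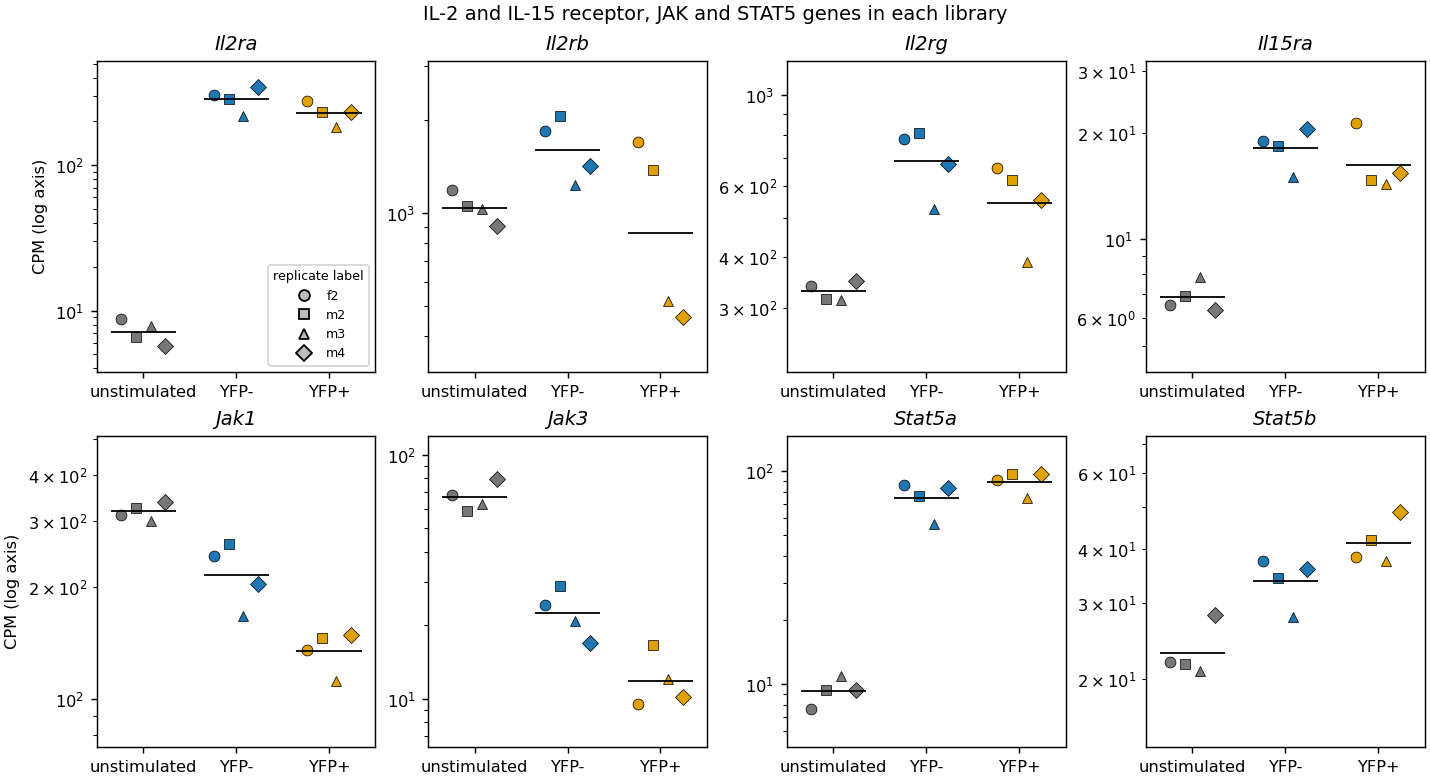
Level of each gene in each of the 12 libraries, in CPM on a log axis, by group, with the replicate label as the symbol and the mean of the log2 values as a line. Il2ra and Stat5a are separated widely from unstimulated samples in both sorted groups, Jak1 and Jak3 step down from unstimulated to YFP- to YFP+, and Il2rb splits within YFP+ into f2 and m2 against m3 and m4.

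Il2ra, the private alpha chain of the IL-2 receptor (ENSMUSG00000026770; GRCm38 chromosome 2, 11642807 to 11693193, plus strand), rose most of the 8. Its level was 8.71, 6.60, 7.83 and 5.67 CPM in the unstimulated samples f2, m2, m3 and m4. It was 302, 287, 217 and 347 CPM in the YFP- samples and 277, 233, 184 and 232 CPM in the YFP+ samples, in the same order of labels. Every sorted library lay far above every unstimulated one, and the sorted groups overlapped each other. The fold was 39.9 in YFP- (95% interval 30.6 to 52.1; log2 change 5.32, SE 0.18, limma adjusted p = 2.7e-10) and 32.2 in YFP+ (24.7 to 42.0; limma adjusted p = 2.7e-10). By size of rise it ranked 64 of 12364 features in YFP- and 99 in YFP+. YFP+ differed from YFP- by -0.31 in log2 (interval -0.70 to 0.07; limma adjusted p = 0.24). Regulatory T cells also carry this chain. Of their 2 markers, Foxp3, which defines them, was at most 0.0789 CPM in any library, while Ikzf4 stood at 0.603 to 1.08 CPM before stimulation, 2.47 to 5.01 for YFP- and 1.02 to 2.49 for YFP+. The part of the latter in the result was not tested.

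Il15ra, the private alpha chain of the IL-15 receptor (ENSMUSG00000023206), lies 12.1 kb beyond Il2ra on the same strand of chromosome 2, from 11705290 to 11734317. It stood at 6.50, 6.92, 7.81 and 6.32 CPM in unstimulated samples, at 19.0, 18.4, 15.1 and 20.5 CPM in YFP- and at 21.3, 14.7, 14.4 and 15.5 CPM in YFP+. The unstimulated samples did not overlap the sorted ones, and the sorted groups overlapped. Its rise was 2.64-fold in YFP- (interval 2.08 to 3.34; limma adjusted p = 1.0e-05) and 2.37-fold in YFP+ (1.87 to 3.0; limma adjusted p = 1.3e-05). The neighbour Il2ra rose more, and the ratio of Il15ra to Il2ra within a library measures this. That ratio, per exon length, was 1.24 in unstimulated samples (0.960 to 1.43 over libraries), 0.0819 in YFP- (0.0758 to 0.0893) and 0.0911 in YFP+ (0.0812 to 0.10). Before stimulation both alpha chains were thus at like levels per length, and after it Il2ra was 12.2 times Il15ra in YFP- and 11 times in YFP+.

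Il2rb, the beta chain that IL-2 and IL-15 share (ENSMUSG00000068227; chromosome 15, 78479256 to 78495271, minus strand), is the receptor gene that passed in no comparison. Unstimulated samples held 1191, 1056, 1034 and 907 CPM, YFP- samples 1842, 2071, 1231 and 1423 CPM, and YFP+ samples 1695, 1376, 520 and 461 CPM. YFP- lay above unstimulated in all 4 libraries with no overlap, whereas in YFP+ f2 and m2 were above every unstimulated library and m3 and m4 below every one. The highest YFP+ library was 3.68 times the lowest, against 1.68 in YFP- and 1.31 in unstimulated samples. On the CPM scale with only reads outside rRNA-like features in the total, the YFP+ values were 1964, 1644, 740 and 599. There f2 and m2 again lay above m3 and m4. However, m2 no longer exceeded every unstimulated library, since unstimulated f2 stood at 1721 on that scale. YFP+ m3 and m4 remained below every unstimulated library, the lowest of which was m4 at 1402. Such totals only rescale each library, and the part of rRNA-like reads in the split was not tested. Under those totals Il2rb was called lower in YFP+ than in YFP- (log2 difference -0.90, limma adjusted p = 0.042), unlike in the deposited values. The log2 difference from unstimulated samples was 0.63 for YFP- (SE 0.35, limma adjusted p = 0.15) and -0.27 for YFP+ (limma adjusted p = 0.53), and YFP+ minus YFP- -0.89 (SE 0.35, limma adjusted p = 0.089), lower in 4 of 4 labels.

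The SE of Il2rb comes from a spread shared by all 3 groups, and the calls turn on it and on which YFP+ libraries are kept. Fitted on the 8 libraries of YFP- and unstimulated cells alone, the YFP- rise had an SE of 0.15 (limma adjusted p = 0.0034). Without YFP+ f2 the YFP+ minus YFP- change was -1.22 (limma adjusted p = 0.012), and without YFP+ m2 it was -1.12 (limma adjusted p = 0.040). Leaving out YFP+ m3 or m4, the low libraries, made the YFP+ minus YFP- difference smaller instead. The change of YFP+ against unstimulated cells was -0.03 without YFP+ m3 and turned to 0.03 without YFP+ m4. With the replicate label as a block, Il2rb was called higher in YFP- (limma adjusted p = 0.046) and lower in YFP+ than in YFP- (limma adjusted p = 0.019).

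Il2rg, the common gamma chain used by the receptors for several cytokines (ENSMUSG00000031304; chromosome X, 101264378 to 101268255, minus strand), rose in both sorted groups. Its levels were 341, 316, 314 and 351 CPM in unstimulated samples, 779, 807, 527 and 679 CPM in YFP-, and 664, 619, 389 and 553 CPM in YFP+. Every sorted library exceeded every unstimulated one, by a narrow margin for YFP+ m3. The fold was 2.09 in YFP- (interval 1.62 to 2.68; limma adjusted p = 0.00017) and 1.65 in YFP+ (1.28 to 2.12; limma adjusted p = 0.0020). YFP+ and YFP- differed by -0.34 in log2 (-0.70 to 0.02; limma adjusted p = 0.17). An annotated gene on the same strand, Gm20489, covers 30.5% of its exon bases and has 0 reads in all libraries.

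Jak1, the kinase bound to the beta chain (ENSMUSG00000028530; chromosome 4, 101152367 to 101265282, minus strand), fell stepwise. It stood at 312, 325, 301 and 339 CPM in unstimulated samples, at 243, 260, 167 and 203 CPM in YFP-, and at 135, 146, 111 and 149 CPM in YFP+. No library of one group overlapped another group. The level was 1.48-fold lower in YFP- (interval 1.2 to 1.83; limma adjusted p = 0.0047) and 2.37-fold lower in YFP+ (1.92 to 2.93; limma adjusted p = 5.1e-06). YFP+ was 1.6-fold below YFP- (1.29 to 1.98; limma adjusted p = 0.0041).

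Jak3, the kinase bound to the common gamma chain (ENSMUSG00000031805; chromosome 8, 71676296 to 71690575, plus strand), fell further in the same order. Unstimulated samples held 68.4, 59.0, 62.5 and 79.4 CPM, YFP- samples 24.3, 29.0, 20.9 and 17.0 CPM, and YFP+ samples 9.50, 16.6, 12.0 and 10.2 CPM. The highest YFP+ library, m2, came close to the lowest YFP- library, m4, without reaching it. The level was 2.99-fold lower in YFP- (interval 2.22 to 4.03; limma adjusted p = 2.7e-05), 5.67-fold lower in YFP+ (4.21 to 7.63; limma adjusted p = 1.8e-07) and 1.89-fold lower in YFP+ than in YFP- (1.41 to 2.55; limma adjusted p = 0.0050). Without the 3 libraries labelled f2 the last difference missed the threshold (limma adjusted p = 0.053). The ratio of Jak3 to Jak1 within a library, per length, was 0.283 before stimulation, 0.140 for YFP- and 0.118 for YFP+, so Jak3 lost more than Jak1.

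Stat5a and Stat5b encode closely related factors and lie head to head on chromosome 11, their starts 8.63 kb apart. Stat5a (ENSMUSG00000004043; 100859351 to 100885169, plus strand) stood at 7.61, 9.37, 10.9 and 9.34 CPM in unstimulated samples. It reached 86.2, 76.8, 56.6 and 83.5 CPM in YFP- and 90.6, 97.3, 74.7 and 96.9 CPM in YFP+. No unstimulated library came near a sorted one. The fold was 8.09 in YFP- (interval 6.36 to 10.3; limma adjusted p = 2.2e-08) and 9.67 in YFP+ (7.60 to 12.3; limma adjusted p = 3.0e-09). Stat5a exons share 72 bases with Stat3 on the opposite strand, 1.01% of their length, and Stat3 itself had log2 differences of 0.25 for YFP- (limma adjusted p = 0.34) and -0.45 for YFP+ (limma adjusted p = 0.078).

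Stat5b (ENSMUSG00000020919; 100780731 to 100850724, minus strand) moved much less than its neighbour. It stood at 21.9, 21.7, 20.9 and 28.2 CPM in unstimulated samples, 37.5, 34.2, 27.8 and 35.8 CPM in YFP-, and 38.4, 41.8, 37.4 and 48.6 CPM in YFP+. The highest unstimulated library, m4, lay just above the lowest YFP- library, m3, and below every YFP+ library. The fold was 1.46 in YFP- (interval 1.18 to 1.81; limma adjusted p = 0.0062) and 1.80 in YFP+ (1.45 to 2.23; limma adjusted p = 0.00018). The YFP- call was lost with quantile normalization (limma adjusted p = 0.056), with library totals free of rRNA-like reads (0.050), and without the libraries labelled f2 (0.052) or m2 (0.055).

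**Figure D2:**
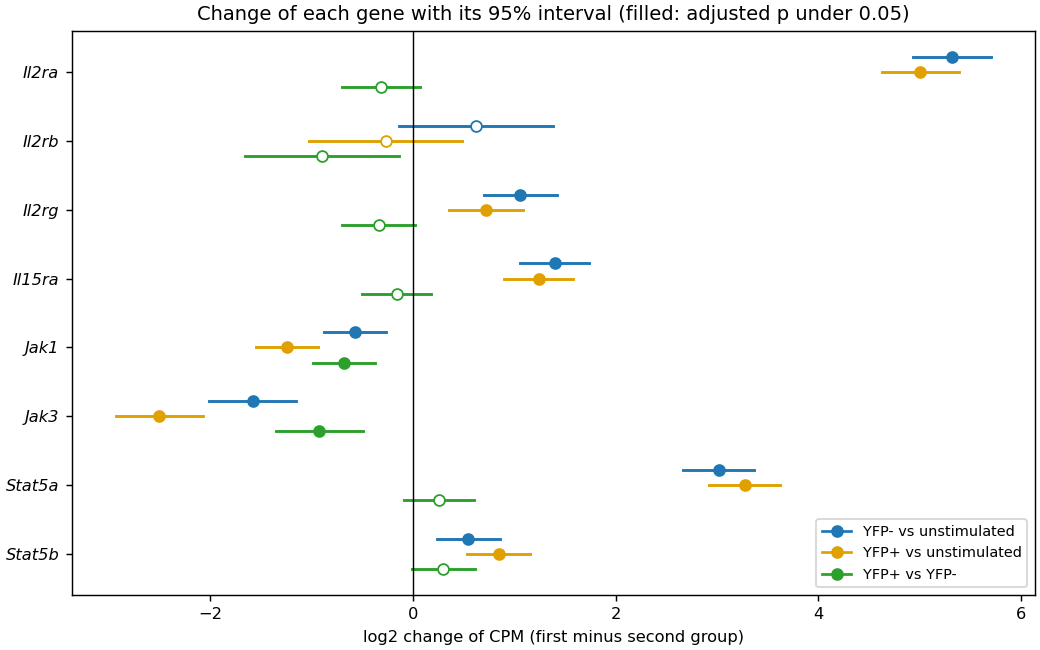
Log2 change of CPM with its 95% interval for each gene in the 3 comparisons, with filled points where the limma adjusted p is under 0.05. Il2ra and Stat5a lie far to the right against unstimulated cells, Jak3 far to the left, and between the sorted groups only the intervals of Jak1, Jak3 and Il2rb exclude 0, of which Il2rb misses the adjusted threshold.

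The pair of STAT5 genes exchanged order. Per exon length, Stat5b was 3.20 times Stat5a in unstimulated samples (2.46 to 3.88 over the 4 libraries), 0.579 times in YFP- (0.553 to 0.633) and 0.595 times in YFP+ (0.546 to 0.645). All 4 unstimulated libraries had more Stat5b, and all 8 sorted libraries had more Stat5a. A ratio within 1 library does not depend on how that library is scaled. For 6 such ratios in 3 comparisons, 18 two-sided exact permutation tests were run over 70 splits each, and the 12 tests against unstimulated samples all gave p = 0.0286 (adjusted p = 0.0429), the smallest value 4 against 4 allow. Those 12 tests share the unstimulated samples, and some share genes, so they are not separate results. Their adjusted value rests on the tie at that smallest p. The 6 tests of YFP+ against YFP- gave exact adjusted p of 0.220 to 0.743. For Stat5b to Stat5a that difference was 0.04 in log2, against a spread over libraries of 0.09 (SD, n = 4) in YFP- and 0.13 in YFP+.

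The alpha chain also gained on the beta chain. Il2ra was 0.00512 of Il2rb per length before stimulation, 0.133 for YFP- and 0.199 for YFP+, so Il2rb exceeded it 195-fold, 7.53-fold and 5.03-fold. In YFP+ the ratio was 0.123 in f2 and 0.127 in m2 but 0.266 in m3 and 0.378 in m4, the libraries with low Il2rb. Il2rg stood at 0.569, 0.770 and 1.13 of Il2rb in the 3 groups, and in YFP+ m3 and m4 it exceeded Il2rb.

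**Figure D3:**
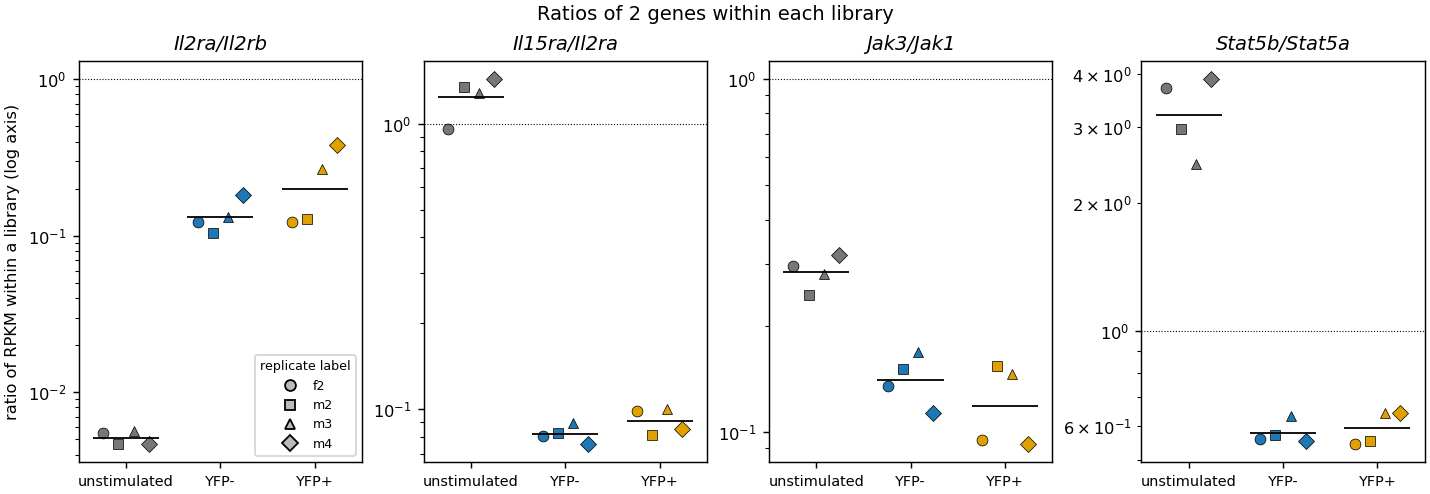
Ratios of RPKM (CPM per kilobase of exon) of 2 genes within each library, on log axes, with the geometric mean as a line and equality as a dotted line. Stat5b to Stat5a and Il15ra to Il2ra start above or near 1 in unstimulated samples and sit below 1 in all 8 sorted libraries, and Il2ra to Il2rb stays below 1 throughout.

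Ordered by mean RPKM, unstimulated samples ran Il2rb (244), Il2rg (138), Jak1 (44.2), Jak3 (12.6), Stat5b (4.18), Il15ra (1.55), Stat5a (1.30) and Il2ra (1.26), and neighbours among the last 3 overlapped. In YFP- the order was Il2rb (383), Il2rg (293), Il2ra (50.5), Jak1 (30.2), Stat5a (10.6), Stat5b (6.11), Jak3 (4.25) and Il15ra (4.10). There Il2rb overlapped Il2rg, and neighbours among the last 3 overlapped. In YFP+ it was Il2rb (236), Il2rg (233), Il2ra (40.6), Jak1 (18.7), Stat5a (12.6), Stat5b (7.5), Il15ra (3.71) and Jak3 (2.26), with overlap only between Il2rb and Il2rg. Il2ra thus went from the lowest place, where it overlapped Stat5a, to the third in both sorted groups, and Jak3 from the fourth to the seventh in YFP-, where it overlapped Il15ra, and to the last in YFP+.

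The comparison of YFP+ with YFP- cells, which share the stimulus and differ in reporter signal, depends on how libraries are scaled. Over all features called, 15.1% were higher in YFP+ as deposited, 41.1% after trimmed-mean scaling, 44.9% after quantile normalization and 50.2% when each library was centred on its median. With totals free of rRNA-like reads the share was 14.1%, near that of the deposited values. The median change over all features moved from -0.19 to 0.07 with centring and was -0.20 with totals free of rRNA-like reads. Against unstimulated cells, totals without rRNA-like reads moved it from 0.14 to -0.05 in YFP- and from -0.03 to -0.22 in YFP+, and the share of higher calls in YFP- from 59.1% to 47.1%. Jak1 and Jak3 were lower in YFP+ under all 5 scalings, Jak1 by -0.68 as deposited and -0.42 with centring, Jak3 by -0.92 and -0.66. Stat5a and Stat5b passed as higher in YFP+ with centring (0.52 and 0.56) and with trimmed-mean scaling (0.45 and 0.49), and missed as deposited (0.26, limma adjusted p = 0.28, and 0.30, limma adjusted p = 0.16). Both were higher in YFP+ than in YFP- for 4 of 4 labels.

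**Figure D4:**
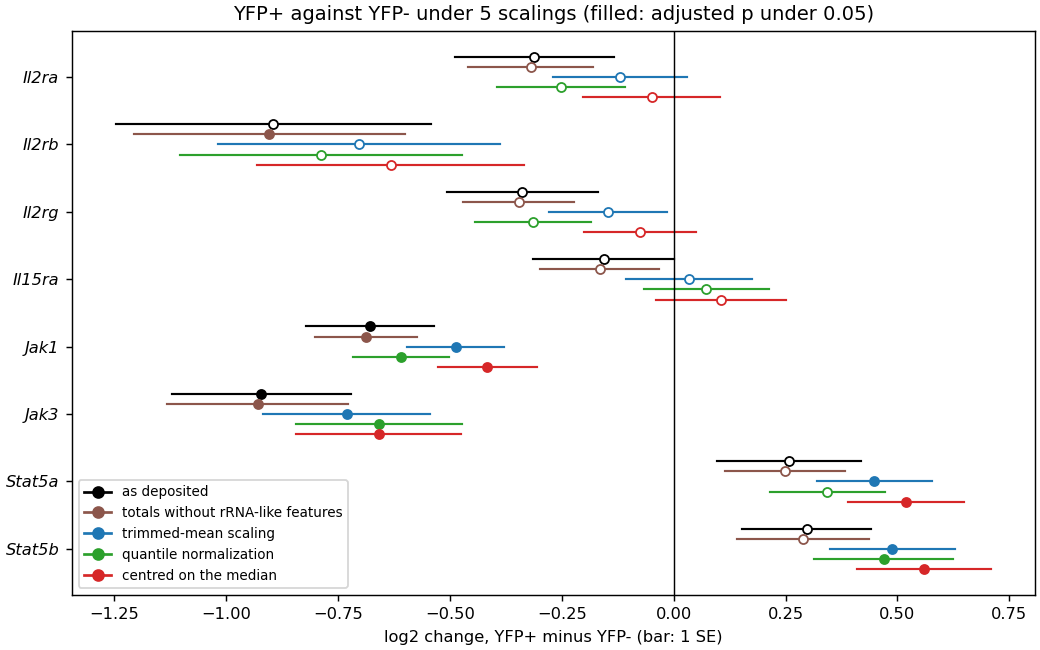
Log2 change of YFP+ minus YFP- with 1 SE for each gene under 5 scalings of the libraries, filled where the limma adjusted p is under 0.05. Jak1 and Jak3 lie left of 0 and filled in all 5, Stat5a and Stat5b move right and are filled in 2 and 3 of them, and Il15ra crosses 0.

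The wider pathway was described with 6 lists holding 56 genes, of which 51 passed the filter. Their counts are read against the shares of all features called, 51.1% in YFP-, 60.8% in YFP+ and 21.8% between the sorted groups, and their medians against 0.14, -0.03 and -0.19. Among ligands, Il2, whose product binds this receptor, rose from 3.62, 7.37, 4.64 and 5.49 CPM in unstimulated samples to 7.95, 9.34, 7.44 and 14.7 in YFP- and 14.8, 13.9, 15.1 and 22.2 in YFP+. Its log2 change was 0.89 in YFP- (limma adjusted p = 0.010), 1.67 in YFP+ (limma adjusted p = 7.0e-05) and 0.77 between the sorted groups (limma adjusted p = 0.045). Il15 was low throughout, at 16 to 34 reads per unstimulated library, 93 to 147 in YFP- and 7 to 18 in YFP+. It was called higher in YFP- than in unstimulated samples (log2 change 2.07, limma adjusted p = 0.00045) and lower in YFP+ than in them (-1.28, limma adjusted p = 0.0089), the latter in 4 of 5 scalings. YFP+ minus YFP- was -3.35 (limma adjusted p = 5.3e-05), so the ligands separated the sorted groups in opposite directions. Il4, Il7, Il9 and Il21 were below the filter.

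Of the 4 other receptor chains that pair with the common gamma chain, 3 were tested, and Il4ra and Il21r, for IL-4 and IL-21, rose in both sorted groups. Il21r went from 41.8 ± 4.21 CPM (SD, n = 4) to 225 ± 53.1 in YFP- and 260 ± 107 in YFP+, and Il4ra from 32.6 ± 4.07 to 66.0 ± 14.7 and 65.6 ± 3.68. Il7r, the IL-7 receptor alpha chain, had 30 to 80 reads in unstimulated libraries and 47 to 76 in YFP-. In YFP+ it had 0 reads in f2, m2 and m4 and 6 in m3, and it was called lower than in YFP- (limma adjusted p = 0.00020), with too few reads for a fold.

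Of 7 other JAK and STAT genes, 3 rose and 1 fell in YFP-, 1 rose and 3 fell in YFP+, and 4 were lower in YFP+ than in YFP-, with median log2 changes of 0.40, -0.45 and -0.57. Against unstimulated cells the 4 of 7 called in each group are near the shares of 51.1% and 60.8% over all features. With centring 2 of the 7 rose and 2 fell in YFP+, and 2 were lower than in YFP-. Jak2, a kinase of other cytokine receptors, rose by 1.25 in YFP- and 1.13 in YFP+ (limma adjusted p = 0.00018 and 0.00024), opposite to Jak1 and Jak3. Stat4, a factor downstream of IL-12, had 24.9 ± 1.85 CPM in unstimulated samples, 21.5 ± 13.1 for YFP- and 5.03 ± 2.57 for YFP+, and was lower in YFP+ than in YFP- by a log2 change of -2.03 (limma adjusted p = 0.0016).

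Of 9 negative regulators, 3 rose and 2 fell in YFP-, 2 rose and 2 fell in YFP+, and 4 were lower in YFP+ than in YFP-, a count that dropped to 1 with trimmed-mean scaling or centring. The median log2 changes were 0.22, -0.37 and -0.50, and against unstimulated cells the counts called, 5 and 4 of 9, are near or below the shares of 51.1% and 60.8% over all features. Cish, a STAT5-induced inhibitor of cytokine receptors, rose from 45.0 ± 6.70 CPM to 209 ± 46.5 in YFP- and 211 ± 60.5 in YFP+ (limma adjusted p = 4.8e-06 and 1.9e-06). Socs1 and Socs2, of the same inhibitor family, fell instead, by 0.89 and 1.0 in YFP- and by 1.57 and 1.68 in YFP+ on the log2 scale. Ptpn6, the phosphatase SHP-1, rose by 2.0 in YFP- and 0.99 in YFP+. Its YFP+ library m3, at 95.7 CPM, lay within the unstimulated range of 61.5 to 106.

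Of 12 STAT5 target genes, 5 rose and 2 fell in YFP-, 5 rose and 4 fell in YFP+, and 4 were lower in YFP+ than in YFP-. Between the sorted groups, 1 was higher and 2 lower in YFP+ with centring. With trimmed-mean scaling or quantile normalization 1 was higher and 4 lower. Osm passed as higher in 3 of 5 scalings, and Pim1 and Bcl2 passed as lower in 4 of 5. The 7 of 12 called in YFP- and 9 of 12 in YFP+ stand beside 51.1% and 60.8% of all features. In YFP- the rise of Pim1 passed in 2 of 5 scalings, and Id2, not called as deposited, passed as lower in 4 of 5. Bcl2l1, which encodes the survival protein BCL-XL, rose by 2.73 in YFP- (limma adjusted p = 2.5e-05) and 2.0 in YFP+ (limma adjusted p = 0.00018). Myc and Bcl6, both transcription factors, and Ccnd2, a D-type cyclin, also rose in both. Another D-type cyclin, Ccnd3, fell from 255 ± 8.59 CPM to 74.3 ± 11.4 in YFP- and 31.9 ± 4.55 in YFP+, and the kinase gene Pim2 from 318 ± 46.4 to 154 ± 26.7 and 50.8 ± 14.9. The list thus held members that moved in opposite directions, with a median log2 change of 0.10 in YFP- and -0.05 in YFP+, which turned to -0.04 and 0.07 with centring. It holds gene names only, without whether STAT5 raises or lowers each gene. A rise of a member, Bcl6 included, is therefore not read as more STAT5 activity.

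Of 18 genes of the PI3K and MAPK arms, which signal from the same receptor beside STAT5, 3 rose and 4 fell in YFP-, 4 rose and 4 fell in YFP+, and 1 was higher and 3 lower in YFP+ than in YFP-. The 7 and 8 of 18 called against unstimulated cells are below the shares of 51.1% and 60.8% over all features, so the counts are no result about the list. With centring 4 were higher and 3 lower in YFP+ than in YFP-, and with totals free of rRNA-like reads 3 rose and 8 fell in YFP+. Pik3cd, the leukocyte PI3K catalytic subunit, fell from 146 ± 8.07 CPM to 57.3 ± 9.71 in YFP- and 25.4 ± 2.40 in YFP+. Mapk3, which encodes ERK1, fell from 71.6 ± 3.03 to 25.8 ± 7.39 and 10.3 ± 2.26 CPM. Rheb, the activator of mTORC1, rose by 1.48 in YFP- and 1.84 in YFP+ (limma adjusted p = 4.0e-07 and 1.9e-08) on the log2 scale. Pik3cd, Mapk3, Ccnd3 and Pim2 shared with Jak1 and Jak3 a lower mean in YFP- than in unstimulated samples and a lower one again in YFP+.

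**Figure D5:**
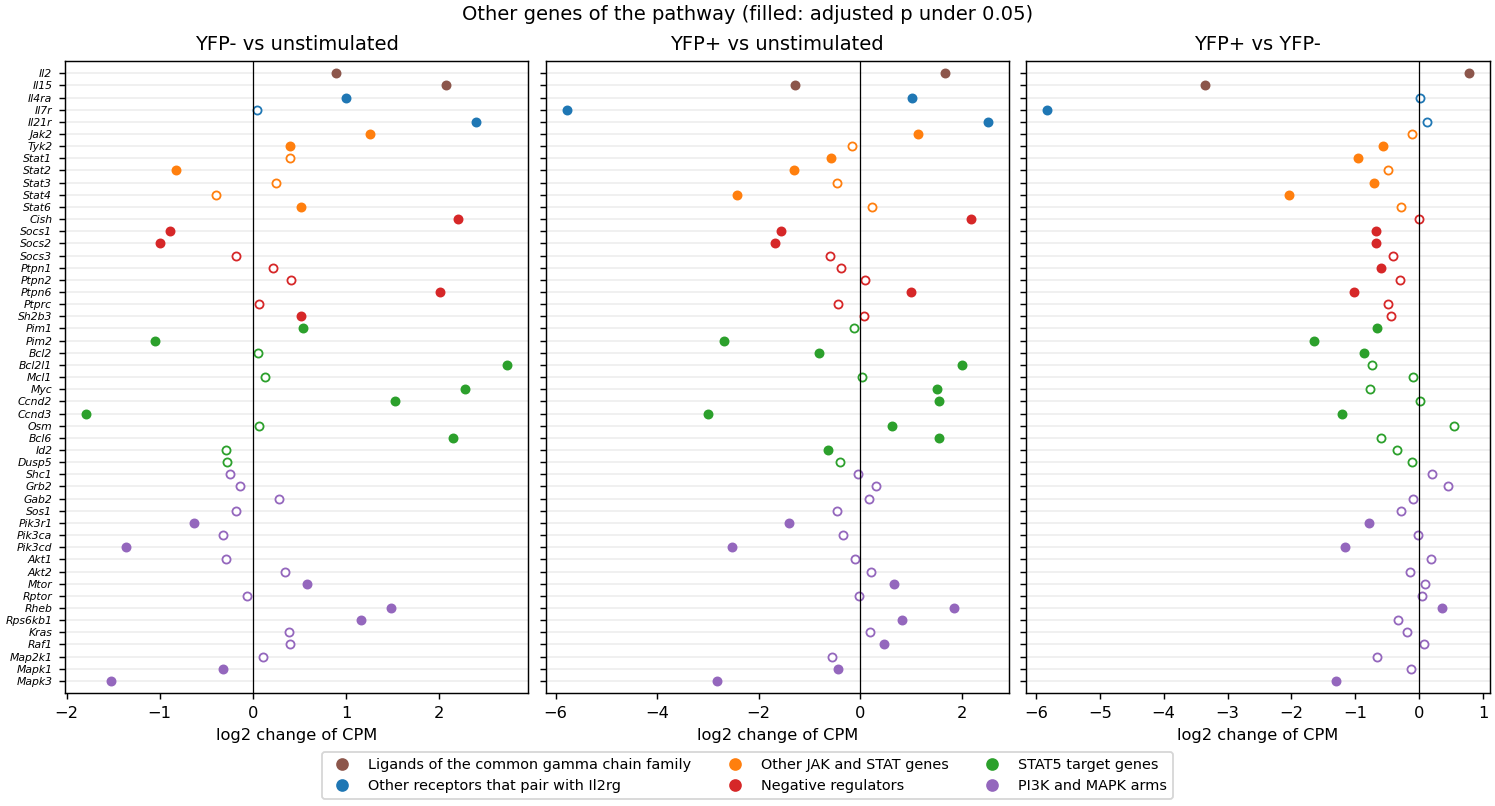
Log2 change of CPM for 51 other genes of the pathway in the 3 comparisons, coloured by list and filled where the limma adjusted p is under 0.05, with a separate horizontal scale in each panel. In the right panel the filled points of YFP+ against YFP- lie to the left of 0 except Il2 and Rheb.

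Genes with the most similar profile were taken from 8095 candidates by the root mean square difference of log2 CPM over the 12 libraries, after each gene was centred on its own mean. Nearest to Il2ra were Tagap (0.43), Tnf (0.46) and Egr2 (0.46), against a root mean square of 2.45 for Il2ra itself. Nearest to Stat5a were Hivep3 (0.13), Pdgfa (0.19) and Slc1a4 (0.19), and to Jak3 Ifitm10 (0.15), Tmem9 (0.16) and Spag5 (0.17). Nearest to Il2rb were Mapre2, Arhgap1 and Nono, at 0.13, 0.13 and 0.16. Having been chosen for likeness over these libraries, they share its split in YFP+ by choice and add no support for it: Mapre2 stood at 53.0 and 40.5 CPM in f2 and m2 against 16.7 and 14.8 in m3 and m4, and Arhgap1 at 60.3 and 51.0 against 21.1 and 17.7. Some pathway genes, not picked by profile, also split this way in YFP+, so the split is not particular to Il2rb. Ptpn6 stood at 256 and 269 CPM in f2 and m2 against 95.7 and 156 in m3 and m4. Bcl2l1 stood at 233 and 209 CPM against 62.4 and 128. Others did not, such as Mcl1 at 53.1 and 82.2 CPM against 83.2 and 100. The YFP+ libraries m3 and m4 were also the smaller ones, at 36.2 and 32.1 M reads against 48.9 and 54.2 M, and had the higher rRNA-like shares, 29.8% and 23.1% against 13.7% and 16.3%. The part of library size or rRNA-like share in this split was not tested. In bulk RNA, fewer cells expressing a gene and less of its mRNA per cell cannot be told apart, here or in any comparison above.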

How the data were processed

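RNA-seq libraries of 12 samples were made from 10 ng of total RNA with a SMARTer Ultra Low kit and sequenced as paired ends on a NovaSeq, per the labels' protocols. The submitters' processing notes name bcl2fastq, STAR 2.7.9a, Subread, featureCounts 2.0.3 and GRCm38. What the authors deposited is a single table of log2 CPM, called moderated in its name, with gene identifiers and biotypes per the file headers. Of 55774 lines, 287 repeats were dropped. Whole reads and totals were recovered for 100% of values (largest difference from the formula 5.15e-14 in log2), and 0 per-sample columns belonged to no sample. As a check for duplicated libraries, counts of replicates were compared by chi-square, which was at least 18.0 per degree of freedom.

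Features that exceeded a log2 CPM of 0 in 4 or more samples (12364) were fitted in limma 3.58.1 (R 4.3.3) on the deposited values, 1 coefficient per group, with eBayes and an intensity trend, and Benjamini-Hochberg adjustment over all of them at 0.05. The filter keeps a gene that is present in 1 group only. Fold intervals are 95% intervals of that fit. Ratios were compared with two-sided exact permutation tests. RPKM used exon unions of GENCODE M21 (GRCm38), which matched 55141 identifiers (99.4%). The labels name no molecular identifiers, so floors cover counting error only. The fit was also run on simulated reads in which some genes were changed in YFP+ only. All simulated libraries were drawn with the same rRNA-like share, so that run does not bear on the scaling of these data. Python 3.11.15 was used with scipy 1.17.1, pandas 2.3.3, matplotlib 3.10.9 and numpy 2.4.6.

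The members, lists, markers and tests were chosen with earlier results of these data known. Genes named are the 8 members, genes of the 6 pathway lists, and the 3 nearest profiles of a member. Alternatives were the replicate block, only the 2 groups compared, other filters, a pseudocount of 1 CPM, 4 other scalings, no trend, voom weights, a threshold of 0.01, and omission of each label; leaving out single libraries was added after seeing the data.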

Additional observations from a re-analysis of the deposited data

Results flagged for a closer look

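Of 48 sets of 4 samples examined for a sample standing apart (the 8 genes, the 6 ratios, library totals and rRNA-like shares in each group), 1 passed the 95% limit of Dixon's ratio for the gap between the extreme sample and its nearest neighbour over the whole range, where chance would give about 2.4. It was Stat5b in unstimulated samples, with a ratio of 0.845: m4 stood at 28.2 CPM and f2, m2 and m3 between 20.9 and 21.9 CPM. That library also led its group in rRNA-like reads, at 35.3%, and the part of those reads was not tested.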

How the results depend on the processing

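Over 24 log2 changes of the 8 genes, 576 values under alternatives gave 553 with the same direction and side of the threshold, 5 that lost the call, 13 that gained one and 5 that turned. The number of genes called in YFP+ against YFP- was 2 as deposited and 4 with centring, trimmed-mean scaling or voom weights, where Stat5a and Stat5b joined. It was 3 after quantile normalization, where Stat5b joined, and 3 with totals free of rRNA-like reads, where Il2rb joined, and 1 to 3 when a label or library was left out (1 without the libraries labelled f2). The turned values were not called in any setting: Il15ra in YFP+ against YFP- was 0.11 with centring, 0.072 after quantile normalization and 0.034 after trimmed-mean scaling or voom, and Il2rb in YFP+ against unstimulated ran from -0.59 to 0.033 over the leave-outs, highest without YFP+ m4. The cause was not tested. Over 18 ratio changes, 108 values held 1 that turned, Stat5b to Stat5a in YFP+ against YFP-, between -0.021 without the label m4 and 0.070 without m2. With CPM + 1 the count of ratio tests past the threshold stayed at 12; leaving out a label or pairing by label cannot reach 0.05 (smallest exact sign-flip p = 0.125), so no such count was made.

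With the replicate label as a block, 8, 7 and 3 of the 8 genes were called in YFP- against unstimulated, YFP+ against unstimulated and YFP+ against YFP-, and Il2rb gained both added calls. Nothing in the labels says that a shared label marks a shared mouse, and the correlations leave this unsettled: same-label correlations of deviations averaged 0.03, 0.14 and 0.24 in these comparisons, over 0.1 in 1, 2 and 3 of 4 pairs, and the own label was highest for 1, 2 and 3 of 4. Genes with few reads, such as Il7r, are limited by depth.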
